A study of Mus musculus with 4 samples.

Results

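In stimulated mouse T cells, 10 genes of cell-mediated killing were followed, chosen by name out of the 49671 genes of the deposited tables. They are the granzyme genes Gzma, Gzmb, Gzmc, Gzmk and Gzmm, together with Prf1, Nkg7, Fasl, Srgn and Ctsw, and all 10 were found in both tables. RNA came from splenic CD3+ T cells of female F1 mus x cast mice, in 4 libraries labelled as biological replicates that form 1 group. The mothers were C57BL/6 with a heterozygous Xist deletion and the fathers Mus musculus castaneus, so every autosomal gene has a maternal C57BL/6 and a paternal Castaneus copy. T cell enrichment columns yielded the cells, which were then stimulated through their antigen receptor and costimulatory receptor for 48 hours, by anti-CD3 on the plate (1 µg/ml) and anti-CD28 in solution (10 µg/ml). IMD-0354, which blocks the kinase IKKβ and so NF-κB signalling, was present at 2.5 µM. All 4 libraries carry every part of this treatment, so neither stimulation nor the inhibitor was compared with its absence, and the values describe 1 condition and the contrast of the parental alleles within it.

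Cytotoxic lymphocytes kill in more than one way. They store granzymes, a family of serine proteases, in secretory granules on a scaffold of the proteoglycan serglycin, release them with the pore-forming protein perforin, and so bring the proteases into the target cell. They also display FAS ligand, which triggers caspases through the receptor FAS. Resting naive T cells hold little of this machinery and build it up over days after activation, in CD8 cells most of all.

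The samples carried the RNA of T cells of both lineages. The T cell genes Cd3e and Trac averaged 42.4 ± 2.30 and 164 ± 9.66 RPKM (reads scaled to exon length and library size, SD, n = 4), the CD8 genes Cd8a and Cd8b1 15.4 ± 0.418 and 49.7 ± 2.25 RPKM, and Cd4 31.1 ± 5.45 RPKM. Of 7 NK cell marker genes 1, Klrd1, which T cells also express, reached 1 RPKM, and the defining NK genes Ncr1 and Klrb1c lay at 0.0895 and 0.0633 RPKM. Myeloid RNA was present, with Lyz2 between 18.8 and 74.4 RPKM, whereas the macrophage and monocyte genes Csf1r and Adgre1 averaged 0.689 and 0.437 RPKM. In low values the RPKM steps of 1 read could be seen, and these correspond to 95394533 to 114374063 reads per replicate. Allelic reads numbered 30539711 to 34992012.

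Srgn, Gzmb and Nkg7 carried most of the cytotoxic RNA, and 3 of the 5 granzymes averaged below 1 RPKM. On the RPKM scale, which is per length of transcript, the order of mean levels was Srgn, Gzmb, Nkg7, Ctsw, Fasl, Prf1, Gzmm, Gzma, Gzmc and Gzmk. Of the 10 genes 7 had a mean of at least 1 RPKM, as had 11453 of all 49671 genes. The median of the 10 means was 3.38 RPKM, against 0 RPKM over all genes. In bulk RNA, fewer cells of a type and less RNA per cell cannot be told apart. The labels do not separate CD4 from CD8 cells, so the cells that made these transcripts were not identified.

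**Figure D1:**
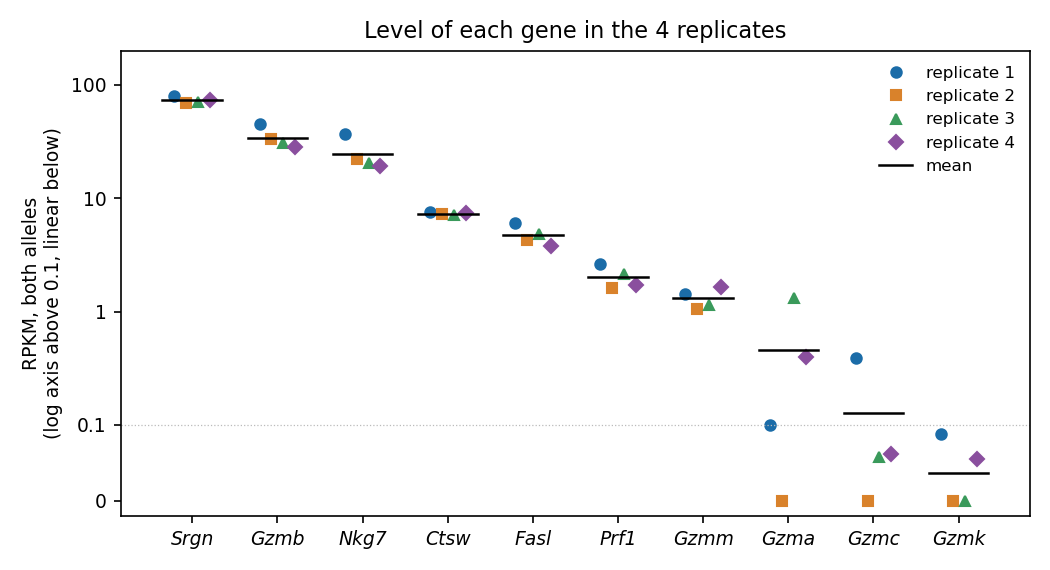
RPKM of both alleles together for the 10 genes, ordered by their mean, with 1 point per replicate and a bar at the mean (log axis above 0.1 RPKM, linear below). Levels span from 73.2 RPKM for Srgn to 0.0359 RPKM for Gzmk, and Gzma, Gzmc and Gzmk are listed at 0 in at least 1 replicate.

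Srgn encodes serglycin, the granule proteoglycan that binds granzymes and perforin. It had 79.3, 68.8, 70.3 and 74.3 RPKM in replicates 1 to 4, with a mean of 73.2 ± 4.72 RPKM (SD, n = 4), which placed it at rank 352 of all genes. It was above every other cytotoxic gene in all 4 replicates, and its range did not overlap that of Gzmb. Srgn is also made by myeloid cells and mast cells. Lyz2, a macrophage and neutrophil gene, had 44.7, 74.4, 27.2 and 18.8 RPKM in replicates 1 to 4. The summed level of the neutrophil markers ran from 16.9 to 83.1 RPKM and that of 4 mast cell and basophil markers from 0.435 to 1.14 RPKM, and their part in the Srgn level was not tested.

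Gzmb encodes granzyme B, the protease that cleaves caspases and other substrates after aspartate. It had 44.9, 33.1, 30.6 and 28.6 RPKM, a mean of 34.3 ± 7.30 RPKM, which was rank 972. Gzmc (ENSMUSG00000079186, chr14:56231441-56234656, minus strand, mm10 in GENCODE M21 as for all genes here), a granzyme gene of the same cluster, had 0.393, 0, 0.0577 and 0.0619 RPKM, a mean of 0.128 ± 0.179 RPKM. Gzmb was above Gzmc in every replicate. Replicate 1 was the highest of the 4 for both genes, and for Gzmc its 0.393 RPKM was worth about 40.2 reads, against at most 5.7 reads in each other replicate. Reads copied from 1 molecule are not independent, so these few reads may stand for fewer molecules. Without replicate 1 the mean of Gzmc was 0.0399 RPKM. The other granzyme genes of the cluster were lower still, as Gzmd, Gzme, Gzmg and Gzmn were listed at 0 in all 4 replicates and Gzmf reached 0.0193 RPKM in replicate 1 only. Gzmc transcripts share 4.14% of their runs of 50 bases with Gzmd, Gzme and Gzmg, so a few of its reads cannot be placed with certainty, whereas Gzmb shares none with a transcript of another gene.

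The promoters of these neighbours are shown because the genes have 24.2 kb between them and lie on the same strand. Their levels were the highest and one of the lowest among the granzymes. The RefSeq sequences (GRCm38.p6, C57BL/6J, minus strand) give the 250 bases before the RefSeq start, chr14:56262335-56262584 for Gzmb and chr14:56234658-56234907 for Gzmc. Capitals mark matches to motifs of T cell transcription factors, searched on both strands.
Gzmb: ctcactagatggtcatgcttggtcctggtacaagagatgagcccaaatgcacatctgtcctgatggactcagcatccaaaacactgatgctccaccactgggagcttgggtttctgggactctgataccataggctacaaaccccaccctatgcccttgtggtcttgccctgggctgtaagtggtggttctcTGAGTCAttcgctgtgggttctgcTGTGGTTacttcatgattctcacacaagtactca
Gzmc: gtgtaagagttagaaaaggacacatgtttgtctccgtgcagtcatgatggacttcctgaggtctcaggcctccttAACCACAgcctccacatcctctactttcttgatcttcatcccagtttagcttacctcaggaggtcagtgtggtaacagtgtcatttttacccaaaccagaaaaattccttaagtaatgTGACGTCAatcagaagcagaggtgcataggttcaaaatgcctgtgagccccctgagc
In Gzmb the capitals are an AP-1 motif (TGANTCA), 58 to 52 bases before the start, and a RUNX motif (TGTGGTT), 34 to 28 bases before it. In Gzmc they are a RUNX motif on the opposite strand and a CRE motif (TGACGTCA), 57 to 50 bases before the start. No 2 of these matches overlap. Distances are counted from the RefSeq start, and for Gzmb the GENCODE gene ends short of that start, at chr14:56262260.

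Windows were found for 9 of the 10 genes, all but Ctsw. The RUNX motif was in windows of 4 of them, Gzma, Gzmb, Gzmc and Srgn, and in 4.4% of all 32851 windows in the RefSeq table. The AP-1 motif was in 1 of the 9 and 6.75% of all windows, the CRE motif in 1 and 1.55%, an NFAT motif (TGGAAAA) in 2, Gzma and Srgn, and 5.93%, and the κB consensus in 1, Gzmk, and 7.25%. A match describes the letters only, and no match says only that these letters are not in the 250 bases.

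Gzma, Gzmk and Gzmm encode granzymes outside that cluster. Gzma (ENSMUSG00000023132, chr13:113093825-113100981, minus strand), the gene of a tryptase of memory cytotoxic T cells and NK cells, had 0.0996, 0, 1.33 and 0.395 RPKM, with a mean of 0.456 ± 0.606 RPKM. Its replicates differed widely, with 149 reads in replicate 3 and 0 in replicate 2, and its mean was 0.165 RPKM without replicate 3. As for Gzmc, these reads may stand for fewer molecules. Gzmk (ENSMUSG00000042385, chr13:113171608-113225908, minus strand), which lies 70.6 kb from Gzma and encodes another tryptase, had 0.0881, 0, 0 and 0.0555 RPKM, with a mean of 0.0359 ± 0.0436 RPKM, or 0.0185 RPKM without replicate 1. The Gzmk gene spans Esm1 on the opposite strand, and no source used here gives the strand setting of the counting, so its few reads are uncertain. Gzmm (ENSMUSG00000054206, chr10:79689020-79695261, plus strand), the gene of a protease that cleaves after methionine, had 1.44, 1.05, 1.15 and 1.66 RPKM, a mean of 1.33 ± 0.280 RPKM, and was the only one of the 3 present in all 4 replicates.

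Prf1 (ENSMUSG00000037202, chr10:61297833-61304680, plus strand) encodes perforin, which forms the pore through which granzymes enter. It had 2.64, 1.61, 2.14 and 1.70 RPKM, a mean of 2.02 ± 0.473 RPKM, far below Gzmb in every replicate. Nkg7, a granule membrane protein gene needed for efficient degranulation in mouse, had 37.2, 22.2, 20.4 and 19.3 RPKM, a mean of 24.8 ± 8.38 RPKM. Ctsw (ENSMUSG00000024910, chr19:5465043-5468507, minus strand), which encodes the protease cathepsin W of cytotoxic lymphocytes, had 7.5, 7.24, 7.14 and 7.35 RPKM, a mean of 7.31 ± 0.153 RPKM. Its coefficient of variation of 2.09% was the smallest of the 10 genes. Fasl (ENSMUSG00000000817, chr1:161780689-161788495, minus strand), the gene of FAS ligand, had 6.05, 4.28, 4.83 and 3.78 RPKM, a mean of 4.74 ± 0.976 RPKM.

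Each step in the order from Srgn down to Gzmm was kept in 4 of 4 replicates. The ranges of Gzmb and Nkg7 overlapped, as did those of Prf1 and Gzmm, whereas Srgn and Gzmb, Nkg7 and Ctsw, Ctsw and Fasl, and Fasl and Prf1 were separate. Below Gzmm the order was not stable. Gzmm was above Gzma in 3 of 4 replicates, Gzma above Gzmc in 2 and Gzmc above Gzmk in 3, so the order of these neighbours is not settled. No test was made of the order.

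Replicate 1 had the highest level of most of these genes. Of the 7 with at least 1 RPKM, 6 were highest in replicate 1, namely Srgn, Gzmb, Nkg7, Ctsw, Fasl and Prf1, and Gzmm was highest in replicate 4. Over all genes with at least 1 RPKM, 19.7% were highest in replicate 1. Replicate 1 was 1.80 times the mean of the other replicates for Nkg7, 1.46 times for Gzmb, 1.45 times for Prf1 and 1.41 times for Fasl, against 1.12 times for Srgn and 1.04 times for Ctsw. None of the 7 differed 2-fold or more between its highest and lowest replicate, as 10.7% of all genes did. With values rescaled to the same total in each replicate, Nkg7 passed that fold with 2.09, as 11.0% of all genes did, and 6 of the 7 were again highest in replicate 1, as were 20.3% of all genes.

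**Figure D2:**
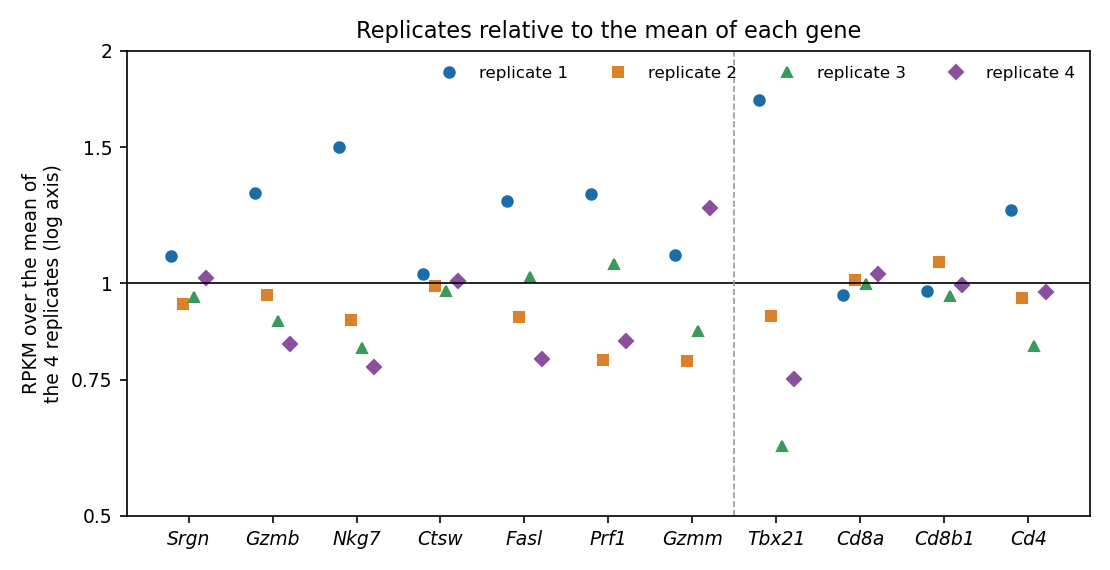
RPKM of each replicate divided by the mean of the 4 replicates of the gene (log axis), for the 7 cytotoxic genes with at least 1 RPKM and, right of the dashed line, Tbx21, Cd8a, Cd8b1 and Cd4. Replicate 1 is the highest for 6 of the 7 genes and for Tbx21 and Cd4, but not for Cd8a or Cd8b1.

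The median coefficient of variation of the 7 genes was 21.1%, against 11.4% over the 11453 genes with at least 1 RPKM. Other RNA also differed in replicate 1. Tbx21, the gene of the transcription factor T-bet, named here after its values were seen, had 13.3 RPKM there and 4.75 to 6.98 RPKM in the others. Of the 9 listed transcription factor genes 6 were highest in replicate 1, as were 19.7% of all genes. Replicate 1 was 2.28 times the mean of the others for Tbx21, 1.40 times for Prdm1, 0.94 times for Eomes and 0.868 times for Irf4. Il17a, the interleukin-17A gene, had 88.7 RPKM in replicate 1 and 13.1 to 27.4 RPKM in the others. The summed CD8 genes did not stand apart, with 63.5 RPKM in replicate 1 and 63.1 to 68.5 RPKM over all, whereas Cd4 was highest there with 38.7 RPKM. The 5 B cell markers summed to 10.5 RPKM in replicate 1 and 4.61 to 6.92 RPKM in the others. The 7 NK markers summed to 2.52 RPKM in replicate 1 and 4.62 to 5.86 RPKM in the others. Most of the NK sum was Klrd1, which T cells also express, with 1.9 RPKM in replicate 1 and 3.56 to 4.41 RPKM in the others. Klre1 and Klrk1 were also lowest in replicate 1, whereas Ncr1, Klrb1c, Klra8 and Klra4 were not. The part of any of these cell types in the higher cytotoxic levels was not tested.

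Genes that work with the cytotoxic proteins mostly had at least 1 RPKM. Over all genes, 11453 of 49671 had that level. Of 10 granule proteases, inhibitors and a cystatin, 9 had at least 1 RPKM, led by Ctsd, a lysosomal protease gene, with 40.4 ± 8.98 RPKM, Serpinb6b, a serpin gene, with 25.5 ± 1.07 RPKM and Ctsb, another lysosomal protease gene, with 21.8 ± 3.56 RPKM. Ctsd had 44.2, 51.3, 33.9 and 32.3 RPKM and Ctsb 22.1, 26.7, 19.1 and 19.3 RPKM in replicates 1 to 4. Both were highest in replicate 2 and next in replicate 1, as were the myeloid genes Lyz2 and Adgre1. Csf1r had 0.891 RPKM in replicate 1 and 0.878 RPKM in replicate 2. The part of myeloid cells in the levels of Ctsd and Ctsb was not tested. All 11 genes of granule release had at least 1 RPKM, led by the lysosome membrane gene Lamp1 with 67.2 ± 4.94 RPKM and the fusion protein genes Stx11 with 28.1 ± 1.95 RPKM and Vamp2 with 22.7 ± 0.943 RPKM. Median levels were 8.88 RPKM in the first list and 18.4 RPKM in the second, and errors are SDs over 4 replicates.

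In the FAS pathway, 3 of 4 partner genes had higher levels than Fasl. Fas, which encodes its receptor, had 31.4 ± 4.42 RPKM, Casp8 21.2 ± 1.06 RPKM, Cflar, which encodes a caspase-8 inhibitor, 17.8 ± 1.3 RPKM, and the adaptor gene Fadd 2.47 ± 0.212 RPKM (SD, n = 4). Among the other death ligands of the TNF family, Lta and Tnf had 67.0 ± 6.26 and 37.0 ± 2.44 RPKM, and Tnfsf10, the TRAIL gene, 1.98 ± 0.279 RPKM. Fas differed from its ligand in being lowest in replicate 1, with 24.9 RPKM against 32.6 to 34.8 RPKM in the other replicates. All 9 transcription factor genes of cytotoxic cells had at least 1 RPKM, with Irf4 at 167 ± 11.6, Bhlhe40 at 92.9 ± 7.94 and Id2 at 46.5 ± 5.61 RPKM. Of 11 effector cytokine genes 8 did, with Il17a at 37.6 ± 34.5, Csf2 at 15.3 ± 4.83 and Il13 at 10.1 ± 6.27 RPKM. These counts stand beside 11453 of all 49671 genes with at least 1 RPKM.

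**Figure D3:**
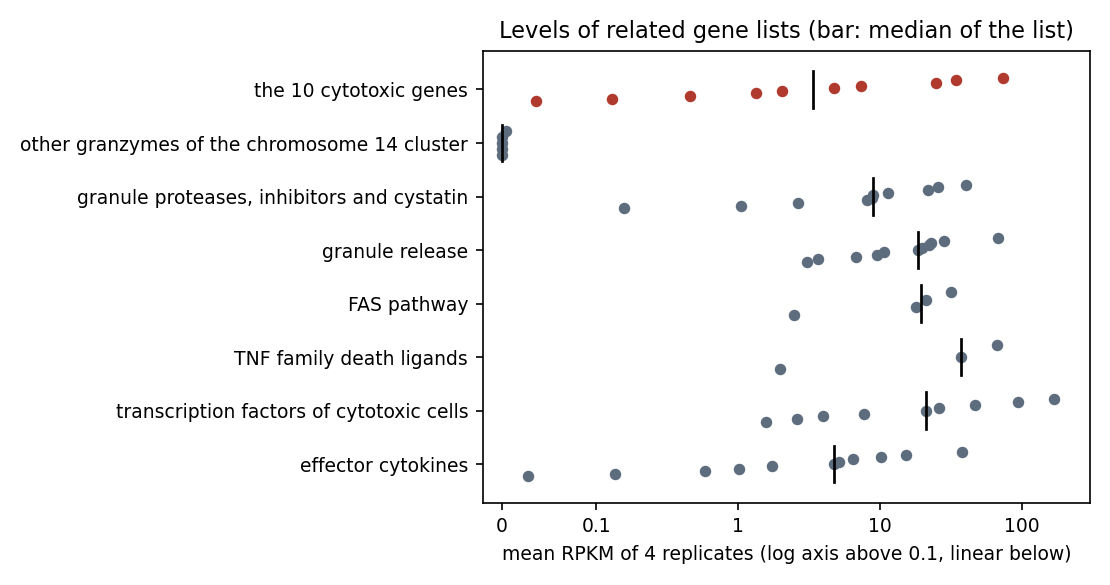
Mean RPKM over 4 replicates of the 10 cytotoxic genes and of the genes in 7 related lists, 1 point per gene, with a bar at the median of each list (log axis above 0.1 RPKM, linear below). The other granzymes of the chromosome 14 cluster sit at or near 0, while the granule release genes have a median of 18.4 RPKM.

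The allelic reads of 3 cytotoxic genes were unequal. A share here is one of reads as the authors assigned them, and since the way of assignment is unknown, a preference of mapping for either parental genome was not measured and may be part of any share or ratio. The Castaneus copy is the paternal one in every sample, so strain and parental origin cannot be told apart in any ratio. Nkg7 was read less from the Castaneus copy, and Srgn and Gzmb were read more from it, each in 4 of 4 replicates. Of the 10 genes 8 reached the minimum of 20 allelic reads on average. Just inside it lay Gzma with a mean of 38.5, and outside it Gzmc with 10.5 and Gzmk with 2. In the 13627 autosomal genes that met the minimum, the Castaneus over C57BL/6 ratio, scaled by the autosomal totals of the alleles, was compared with 1 (edgeR's quasi-likelihood test with the replicate as a block, Benjamini-Hochberg adjustment over all of them, FDR of 5%). Of these genes 22.9% passed, 10.4% (1418) higher and 12.5% (1700) lower from Castaneus. These counts were 917 and 1053 without replicate 1 and 951 and 1045 without replicate 4. Of the 8 cytotoxic genes 3 passed, 2 higher and 1 lower. Their median absolute log2 ratio was 0.52, against 0.349 over all genes tested, but their median standard error was also larger, 0.324 against 0.212.

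Nkg7 (ENSMUSG00000004612, chr7:43437073-43438249, plus strand, mm10) had 442, 254, 248 and 194 Castaneus reads in replicates 1 to 4, against 995, 466, 652 and 465 C57BL/6 reads. This is a Castaneus share of 30.8%, 35.3%, 27.6% and 29.4%, with a mean of 30.8% ± 3.29 (SD, n = 4). The lowest and highest exact Clopper-Pearson 95% limits of the 4 shares were 24.7% and 38.9%, and these limits cover counting error only, since reads copied from 1 molecule are not independent. The share was under 50% in every replicate, as in 25.5% of the genes tested. The log2 ratio was -1.15 with a standard error of 0.16 and an adjusted p of 0.000463 in edgeR. Of all genes tested, 10.1% had a ratio as low or lower. Nkg7 kept this side and passed in all 14 alternatives, with an adjusted p of 1.9e-12 to 0.0118 in edgeR or DESeq2.

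Srgn (ENSMUSG00000020077, chr10:62493833-62527451, minus strand) had 6084, 4482, 5851 and 4885 Castaneus reads, against 4013, 2938, 3808 and 4272 C57BL/6 reads. Its Castaneus share was 60.3%, 60.4%, 60.6% and 53.3%, with a mean of 58.6% ± 3.53 (SD, n = 4). Replicates 1 to 3 lay within their counting limits of each other, and replicate 4, with limits of 52.3% to 54.4%, lay below them. The log2 ratio was 0.53 with a standard error of 0.08 and an adjusted p of 0.000663 in edgeR, and 17.4% of all genes tested had a ratio as high or higher. Without replicate 4 the log2 ratio was 0.63. In the 14 alternatives the adjusted p ran from 6.12e-13 to 0.014. Myeloid cells also make Srgn, and their part in its allelic ratio was not tested.

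Gzmb (ENSMUSG00000015437, chr14:56258838-56262260, minus strand) had 2917, 2076, 2130 and 1911 Castaneus reads, against 2511, 1402, 1557 and 1495 C57BL/6 reads. The Castaneus share was 53.7%, 59.7%, 57.8% and 56.1%, with a mean of 56.8% ± 2.53 (SD, n = 4). A share above 50% in every replicate, as for Gzmb and Srgn, was found in 17.3% of the genes tested. The log2 ratio of Gzmb was 0.42 with a standard error of 0.08 and an adjusted p of 0.00398 in edgeR.

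The call of Gzmb depended on the scaling. Chromosome 14 as a whole had a Castaneus share of 58.1% ± 1.17, against 49.6% ± 0.087 for all autosomes (SD, n = 4), and 1 gene, the RNase P RNA gene Rpph1 with a share of 72.9% ± 1.25, held 2645534 of its 6912872 allelic reads. Scaled by the chromosome 14 totals, Gzmb had a log2 ratio of -0.08 and did not pass (adjusted p = 0.617 in edgeR). Without Rpph1 the share of the chromosome was 49.1% ± 0.301, and scaled by those totals Gzmb had a log2 ratio of 0.45 and passed (adjusted p = 0.00234 in edgeR). Gzmb also failed to pass without the replicate block (adjusted p = 0.157 in edgeR), and over its 14 alternatives the adjusted p ran from 3.65e-08 to 0.617.

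**Figure D4:**
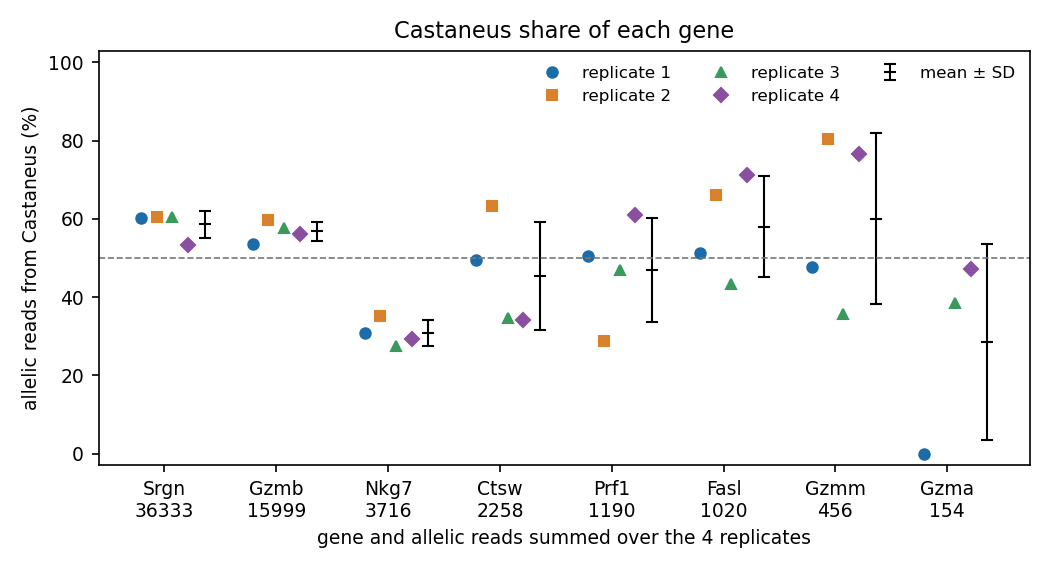
Castaneus share of the allelic reads for the 8 cytotoxic genes that reached 20 allelic reads on average, 1 point per replicate with the mean ± SD beside them and the summed allelic reads under each name. Srgn, Gzmb and Nkg7 have SDs of 2.53 to 3.53 percentage points, and the 4 genes after them of 12.9 to 21.9.

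No allelic difference could be called for the other 5 genes, which had fewer reads and a wider spread. Ctsw had a Castaneus share of 49.5%, 63.3%, 34.6% and 34.2% in replicates 1 to 4, a mean of 45.4% ± 13.9 (SD, n = 4). Prf1 had 50.6%, 28.9%, 47.0% and 60.9%, a mean of 46.9% ± 13.3. Fasl had 51.4%, 66.0%, 43.3% and 71.3%, a mean of 58.0% ± 12.9. Each of these genes had replicates on both sides of 50%. Gzmm spread more widely than these 3, with 47.6%, 80.4%, 35.7% and 76.7% and a mean of 60.1% ± 21.9.

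Several of these shares lie outside each other's counting limits. For Gzmm the exact 95% limits were 71.4% to 87.6% in replicate 2 and 26.9% to 45.3% in replicate 3, from 102 and 112 reads. These limits treat reads as independent. Among autosomal genes with 20 to 39 allelic reads, 36.4%, 84.2%, 45.2% and 13.5% were read from 1 allele only in replicates 1 to 4. Were both copies of those genes read alike, that would amount to 11.4, 22.6, 13 and 7.19 reads per molecule, and the counting limits would be too narrow. The edgeR log2 ratios were 0.71 ± 0.71 for Gzmm, 0.51 ± 0.37 for Fasl, -0.16 ± 0.35 for Prf1 and -0.26 ± 0.30 for Ctsw (standard error), with adjusted p of 0.550, 0.386, 0.810 and 0.609. At this spread a difference of the size seen in Srgn was not detectable in them. Ctsw overlaps Fibp on the opposite strand by 9 bases.

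Gzma had 0, 44 and 16 Castaneus reads, against 6, 70 and 18 C57BL/6 reads, in replicates 1, 3 and 4, and no allelic read in replicate 2. With a limit of 3 counts, the 0 of 6 reads in replicate 1 would allow a Castaneus share of at most 50% if reads were independent. Were reads copied as estimated above, at 11.4 per molecule in replicate 1, 6 reads would set no such limit. The mean share of Gzma over the 3 replicates with reads was 28.6% ± 25.1 (SD, n = 3), the largest SD of the 8 genes. Gzma did not pass (log2 ratio -1.22, standard error 1.58, adjusted p = 0.656 in edgeR). Gzmc had 20 Castaneus and 22 C57BL/6 reads in all and Gzmk 0 and 8, too few for a share by the rule.

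**Figure D5:**
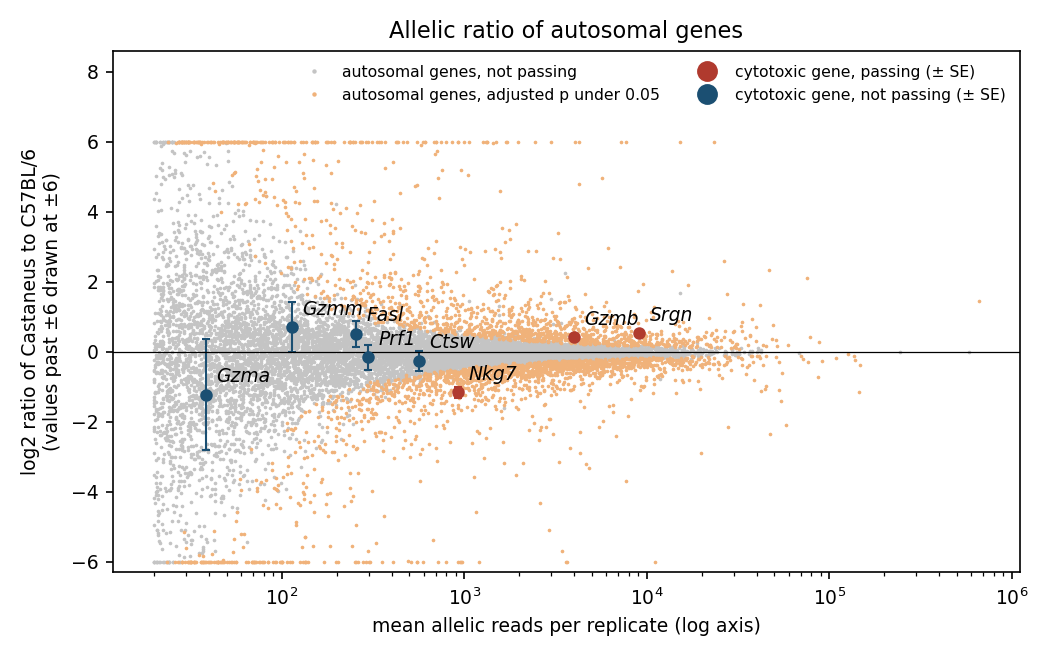
Log2 ratio of Castaneus to C57BL/6 reads against the mean number of allelic reads per replicate (log axis) for 13627 autosomal genes, with the 8 cytotoxic genes marked and drawn with the standard error. Nkg7 lies below 0 at -1.15 and Srgn and Gzmb above 0 at 0.53 and 0.42, and the 5 genes that did not pass have wider error bars.

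Genes of the same processes also included genes with unequal alleles. In the FAS pathway all 4 genes were tested and 3 passed, Fas, Casp8 and Cflar, all lower from Castaneus. Their log2 ratios were -0.49, -0.48 and -0.23 (edgeR, adjusted p = 0.000589, 0.00182 and 0.0119), while Fadd had -0.56 (adjusted p = 0.0511). Casp8 and Cflar lie next to each other among the tested genes of chromosome 1, so their calls may not be independent. Of 3 death ligand genes 1 passed, Tnfsf10, with 81.1% ± 3.92 of its reads from Castaneus (SD, n = 4). Of 9 tested granule release genes 2 were higher from Castaneus, Vamp8 and Stx11, and 2 lower, Rab27a and Ap3b1. Of 8 tested granule proteases, inhibitors and cystatin 0 were higher and 2 lower, namely Serpinb6b, with 28.3% ± 2.68 from Castaneus, and Cst7, the cystatin F gene, with 35.5% ± 8.52. Serpinb9, the gene of a granzyme B inhibitor, named after its values were seen, had 8.77 RPKM but no allelic read. Of 9 transcription factor genes 2 were higher, Eomes and Tbx21, and 2 lower, Bhlhe40 and Irf4, and of 10 cytokine genes 0 were higher and 3 lower, Il17a, Il22 and Il13. Each of these calls stands against the 22.9% of all autosomal genes tested that passed, 10.4% higher and 12.5% lower from Castaneus.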

How the data were processed

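Per the labels' protocols, the 4 libraries came from a stranded kit for total RNA with depletion of rRNA. The authors deposited raw read counts for each gene, split by allele, and RPKM for the gene as a whole (units per the file headers). The submitters' processing notes name STAR 2.7.1a, featureCounts and mm10. Allele assignment, duplicate handling and strand setting were not given in the sources used here. Allelic counts sum to less than the depth, so shares rest on part of the reads.

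Gene positions and exon lengths came from GENCODE M21. With these lengths, 90.6% to 90.8% of low RPKM values were whole multiples of 1 read within 0.02 reads, which gave the depths quoted. Counts of autosomal genes with a mean of at least 20 allelic reads entered glmQLFit and glmQLFTest of edgeR 4.0.16 in R 4.3.3. The replicate was a block, since each library holds both alleles, and an allele's autosomal total was its library size. Alternatives were TMM factors, size factors and the Wald test of DESeq2 1.42.0, no replicate block, other read or RPKM minimums, chromosome totals, reads divided by reads per molecule, and each replicate left out. The steps were tested on simulated data. RPKM levels were described without a test. The labels call the samples biological replicates, and p-values measure the spread between them. The genes, lists and tests were chosen with earlier results of these data known. All 10 genes are named, and from each list up to 3 genes with the highest mean RPKM, and all genes of the FAS pathway and the chromosome 14 granzymes. Other list genes, such as those with an allelic call, were named after their values were seen. A likeness over samples was not computed, as 4 are too few. Python 3.11.15, numpy 2.4.6, pandas 2.3.3, scipy 1.17.1 and matplotlib 3.10.9 did the rest.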

Additional observations from a re-analysis of the deposited data

Results flagged for a closer look

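In 3 values 1 replicate lay far from the other 3, with a gap to the nearest replicate that, as a share of the whole range, exceeds Dixon's 95% critical value for 4 samples. For the Castaneus share of Srgn the gap was 0.956 of the range, because replicate 4 had 53.3% and the others 60.3% to 60.6%. For the level of Nkg7 it was 0.838, because replicate 1 had 37.2 RPKM and the others 19.3 to 22.2 RPKM. For the level of Gzmc it was 0.842, because replicate 1 had 0.393 RPKM and the others at most 0.0619 RPKM. These Gzmc levels rest on few reads. In all, 17 values were examined, and chance flags about 1 in 20.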

How the results depend on the processing

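The count of cytotoxic genes with unequal alleles was 3 as reported and 3 in all alternatives except the fit without the replicate block and the one scaled by chromosome totals, where it was 2, Gzmb being the gene lost. Leaving out a replicate gave 3 in each case. Nkg7 and Srgn kept direction and call in 14 of 14 alternatives. Gzmb had a log2 ratio of -0.08 under chromosome totals, where Rpph1 holds a large part of the reads, and 0.40 without the replicate block, and it was called in 12 of 14. Prf1, never called, had log2 ratios of 0.08 on the molecule scale and 0.18 without replicate 2, against -0.16 as reported, and ran from -0.43 to 0.18 with a replicate left out. The other uncalled genes kept their sign but moved widely with a replicate left out, Gzmm from 0.24 to 1.24 (0.71 as reported), Gzma from -1.98 to -0.38 (-1.22), Fasl from 0.24 to 0.80 (0.51) and Ctsw from -0.61 to -0.03 (-0.26). The lowest adjusted p among these was 0.0733, for Ctsw without replicate 2 (edgeR). Gzma was not tested without replicate 3, where it had too few reads, or with a minimum of 1 RPKM. DESeq2 called 2367 autosomal genes higher and 2321 lower from Castaneus, against 1418 and 1700 in edgeR, which called 917 and 1053 without replicate 1 and 951 and 1045 without replicate 4. The median log2 ratio of all genes was -0.048 as scaled here and -0.004 with TMM factors. The number of the 7 genes that differed 2-fold between replicates was 0, but 1 when values were rescaled to the same total. It was 0 with either pseudocount and without each replicate. Without the RPKM filter it was also 0, but that count takes only genes above 0 in every replicate and so leaves out Gzma, Gzmc and Gzmk, which are listed at 0 in at least 1 replicate and differ widely. The 6 genes highest in replicate 1 were also 6 after rescaling, and 8 of 10 without the filter on low values. Both alternatives were chosen after the data were seen. The genes added without the filter, Gzmc and Gzmk, averaged only 0.128 and 0.0359 RPKM. The share of all genes highest in replicate 1 without the filter was not computed. Mean levels after rescaling and shares of the summed reads moved by less than 1 SD. So did both with a replicate left out, but dropping 1 value cannot move a mean that far, so this says nothing of stability. For low genes the SD is as large as the mean. Leaving out a replicate gave means of 0.165 to 0.608 RPKM for Gzma, 0.0399 to 0.171 for Gzmc and 0.0185 to 0.0479 for Gzmk, and a Castaneus share of 19.3% to 42.8% for Gzma. Low read numbers limit the precision for Gzma, Gzmc and Gzmk.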
